A study of Homo sapiens with 18 samples.

Results

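The cells that served as virus controls in an epithelial to mesenchymal transition (EMT) study of HCC827, an EGFR-mutant human lung adenocarcinoma cell line, were compared directly with each other. One control carried a lentivirus made with the vector pLX303 and the lacZ insert (lacZ cells), and the other a lentivirus made with the vector pLKO1 and a short hairpin RNA that has no target (shNT cells). Arrays were chosen by their titles, which gave 3 lacZ and 3 shNT arrays, 6 of the 18 arrays in the series. Total RNA was labelled with biotin and hybridized to Illumina bead arrays. The labels name the lacZ cells as the control lentivirus of the experiment in which SNAIL (gene symbol SNAI1, with a V5 tag in pLX303) was overexpressed, and the shNT cells as the control of the experiment in which a pLKO1 hairpin against CDH1 was used. Parental HCC827 cells without virus (3 arrays) are given beside both. Cells treated with TGFB1 (3 arrays), SNAIL cells (3) and CDH1 hairpin cells (3) entered the normalization and the estimate of the spread.

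A lentivirus inserts its genome into the DNA of the host cell, and a control virus carries everything but the insert under study. The bacterial gene lacZ encodes beta-galactosidase, an enzyme that mammalian cells do not need, so a lacZ virus makes the cell express a foreign protein. A hairpin virus instead makes the cell transcribe a small RNA that enters the microRNA pathway, in which DROSHA, exportin-5 (XPO5), DICER1 and the Argonaute protein AGO2 act. Airway and lung cancer cells sense viral nucleic acids through interferon and NF-kB signalling, and NF-kB drives chemokine, interleukin and antimicrobial genes in such cells.

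The vector, the insert, the infection and the experiment each differed between the groups and cannot be told apart. Promoters, selection, virus dose and time after infection are not given in the sources used here, nor is it said whether the cells were pools or clones. Replicates run from 1 to 3 in the titles but are 1, 1 and 2 in the descriptions. Neither field names separate cultures, so the p-values measure a spread that may be technical. Levels below are normalized log2 intensities, and differences are lacZ minus shNT in log2 units with their standard error (n = 3 arrays per group). That error comes from a moderated spread pooled over all 6 groups. It is too small for a gene whose lacZ or shNT arrays vary more than those of the other groups. The median level over all probes was 6.82, and levels near or below it are close to background, where the size of a fold depends on the background correction.

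Median raw intensity was 197.8 to 229.6 in the lacZ arrays and 171.6 to 223.8 in the shNT arrays. Over probes, arrays correlated at r = 0.9927 to 0.9930 among lacZ cells, 0.9897 to 0.9932 among shNT cells and 0.9768 to 0.9884 between them. Array 2 of the shNT cells stood apart in a small set of genes, with 27 genes over 1 log2 unit above the mean of the other shNT arrays and 4 below. For shNT array 1 these counts were 1 and 16, for shNT array 3 they were 0 and 2, and for each lacZ array they were at most 2. Markers of the labelled cell type were high in both groups. The median level of 10 markers of lung adenocarcinoma epithelium was 12.76 in lacZ and 12.90 in shNT cells. Averaged over all arrays of the series, 9 of them lay above the array median, and SFTPB, a surfactant protein, did not. CDH1, the gene of E-cadherin, read 13.15, 13.13 and 13.09 in lacZ cells and 13.02, 13.04 and 12.94 in shNT cells, a difference of 0.12 ± 0.12 (adjusted p = 0.571). EGFR read 13.30, 13.29 and 13.18 against 13.14, 13.15 and 13.25 on its brightest probe, a difference of 0.07 ± 0.07 (adjusted p = 0.533), while fainter EGFR probes gave 0.69 and 0.81 and passed the test. SNAI1 lay below the array median at a mean of 6.29 and 6.24, and its groups overlapped. None of the 10 endothelial, 8 neuroendocrine or 10 fibroblast markers passed the test. Averaged over all arrays of the series, all 10 endothelial markers lay below the array median and 7 fibroblast markers above it. The median level of the fibroblast markers was 6.64 in lacZ and 6.54 in shNT cells, below the array median.

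Across 20046 genes, 4374 (21.8%) differed between the virus controls at an adjusted p below 0.05 (limma with Benjamini-Hochberg adjustment, two-sided). Of these, 2274 (11.3% of all genes) were higher and 2100 (10.5%) lower in lacZ cells, and 415 (2.07%) differed by at least 1 log2 unit, 207 (1.03%) upward and 208 (1.04%) downward. Each count of list members below is read beside the shares of 11.3% higher and 10.5% lower. Calls were more frequent among genes with a mean level above the array median. Of 13027 such genes fitted alone, 4560 were called, 2399 higher and 2161 lower. In most lists most members lay above that median, so these counts are the closer background for them. A count near either background is no result about the list. Among 17208 probes that carry no single gene symbol, 8.03% were called. The split depends on the normalization: 52.0% of calls were higher in lacZ cells after quantile normalization, 70.1% after median centring, 78.0% with no normalization between arrays and 83.6% with a floor and log2 alone. With that floor the median difference of all genes was 0.17, against 0.0037 in the main analysis, and calls there are read relative to it. Among called genes, 4050 had all 3 arrays of one group on one side of the other 3, an arrangement seen in 32.8% of all genes.

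The parental level lay between the control means for 1318 of the genes higher in lacZ cells, above the lacZ mean for 511 and below the shNT mean for 445. For the genes lower in lacZ cells it lay between the means for 1198, below the lacZ mean for 541 and above the shNT mean for 361. Against parental cells themselves, 2760 genes (13.8%) were called in lacZ cells and 4161 (20.8%) in shNT cells. These comparisons share the parental arrays with each other and the virus arrays with the main one, so their values are only set side by side below.

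**Figure D1:**
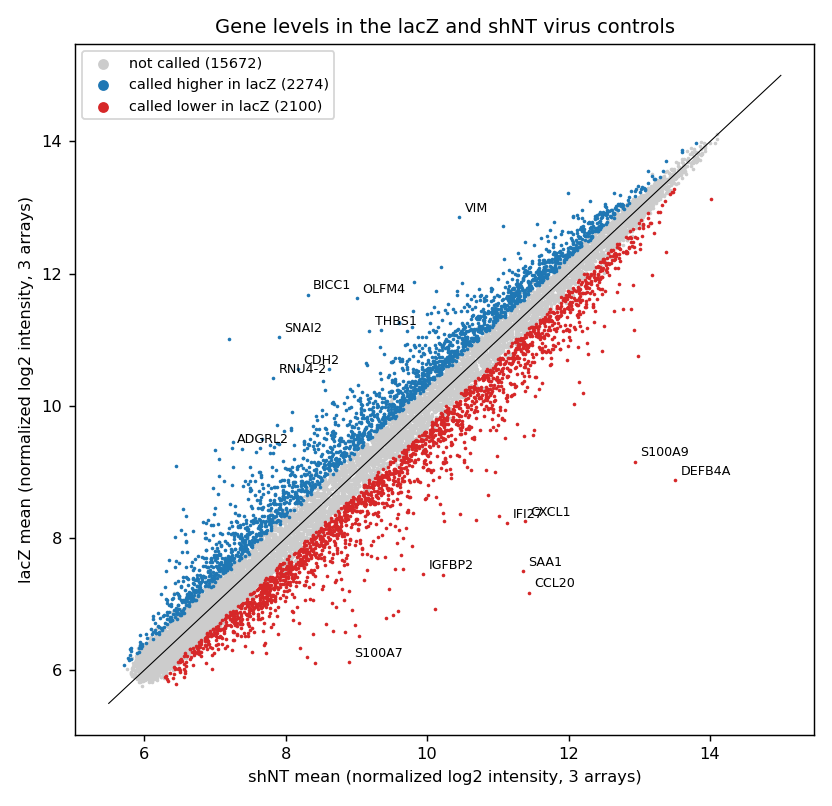
Mean normalized log2 intensity of 20046 genes in the 3 shNT arrays (horizontal axis) and the 3 lacZ arrays (vertical axis), with the line of equal levels. Blue points are the 2274 genes called higher and red points the 2100 called lower in lacZ cells; the named points farthest below the line include DEFB4A, CCL20, SAA1 and S100A9, and SNAI2, BICC1, OLFM4 and VIM lie far above it.

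Several chemokines and both interleukin-1 genes, which NF-kB drives, were lower in lacZ than in shNT cells. Of 30 measured genes of NF-kB feedback, cytokines and chemokines, 14 were lower and 1 was higher in lacZ cells, with a median difference of -0.28, and 15 were not called. The largest difference belonged to CCL20, a chemokine that attracts CCR6-bearing lymphocytes and dendritic cells. It read 7.14, 7.23 and 7.16 in the lacZ arrays and 11.37, 11.42 and 11.53 in the shNT arrays, a difference of -4.26 ± 0.11 or 19.2-fold (adjusted p = 2.56e-20). Parental cells read 10.15 on average, so CCL20 was 2.97 log2 units lower in lacZ cells and 1.29 higher in shNT cells than in cells without virus. CXCL1, which draws neutrophils through CXCR2, read 8.26, 8.41 and 8.10 against 11.05, 11.63 and 11.47 (-3.13 ± 0.15, 8.76-fold, adjusted p = 4.54e-14). Its neighbour CXCL2 read 8.29, 8.26 and 8.30 against 10.73, 10.62 and 10.74 (-2.41 ± 0.11), and CXCL8, which encodes interleukin-8, 10.80, 10.40 and 11.05 against 12.82, 13.26 and 12.85 (-2.23 ± 0.13). CXCL2 and CXCL8 fall outside the rule for named genes and were chosen after their values were seen. CXCL1, CXCL2 and CXCL3 are near-identical in sequence, so their probes may share signal, although CXCL3 itself differed by -0.16 and did not pass the test.

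Both interleukin-1 genes were among the 15 largest falls. IL1A read 7.57, 7.33 and 7.44 in lacZ and 10.05, 10.48 and 10.17 in shNT cells (-2.78 ± 0.13, 6.89-fold), and IL1B 6.66, 6.83 and 6.86 against 9.32, 9.20 and 9.74 (-2.64 ± 0.15, 6.22-fold). In each gene every lacZ array lay below every shNT array, and the lacZ level of IL1B was at the array median. The shNT cells were close to parental cells in both, with differences of 0.26 for IL1A (adjusted p = 0.17) and 0.32 for IL1B (adjusted p = 0.14), while lacZ cells were 2.52 and 2.32 log2 units lower than parental cells. Genes of inhibitors that NF-kB induces against itself were lower to unequal extents. TNIP3, a partner of the A20 protein, differed by -2.52 ± 0.12, TNFAIP3, the gene of A20, by -0.59 ± 0.13, and NFKBIA, the gene of the inhibitor IkB-alpha, by -0.43 ± 0.09. The NF-kB subunit genes NFKB1 (-0.01), NFKB2 (-0.17), REL (-0.09) and RELB (-0.09) did not pass the test. IL6, an interleukin that induces acute phase genes, was lower in lacZ than in shNT cells by 0.64 log2 units, although both were higher than parental cells, by 1.24 in lacZ and 1.88 in shNT. IL11, a relative of IL6, was the member that was higher in lacZ cells (0.70 ± 0.14, adjusted p = 0.000681). The count of 14 lower members was 9 with no normalization between arrays and 13 or 14 with any 1 array left out.

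The promoters of the chemokine genes are shown because most called members of the NF-kB list carry the letters to which that factor binds. The 250 bases before the RefSeq transcription start (GRCh38.p14) are given for CCL20 (chr2:227813592-227813841, plus strand), CXCL1 (chr4:73869143-73869392, plus strand) and CXCL2 (chr4:74099196-74099445, minus strand), 5′ to 3′, with matches to the kappa-B consensus in capitals.
CCL20: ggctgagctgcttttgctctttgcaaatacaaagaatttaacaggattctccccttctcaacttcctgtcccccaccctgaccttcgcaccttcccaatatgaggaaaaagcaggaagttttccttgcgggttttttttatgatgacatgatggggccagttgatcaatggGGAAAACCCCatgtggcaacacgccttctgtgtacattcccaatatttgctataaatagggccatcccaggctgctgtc
CXCL1: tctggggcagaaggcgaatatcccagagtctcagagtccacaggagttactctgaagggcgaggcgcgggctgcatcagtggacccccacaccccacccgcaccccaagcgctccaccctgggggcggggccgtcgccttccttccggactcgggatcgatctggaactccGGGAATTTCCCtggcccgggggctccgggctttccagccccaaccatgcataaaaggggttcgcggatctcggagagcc
CXCL2: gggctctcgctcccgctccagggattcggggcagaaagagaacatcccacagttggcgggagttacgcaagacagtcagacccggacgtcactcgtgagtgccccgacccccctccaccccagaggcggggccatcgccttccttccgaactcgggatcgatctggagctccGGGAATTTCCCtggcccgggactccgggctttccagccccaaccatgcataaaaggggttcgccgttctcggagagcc
The consensus, a motif of 10 letters (GGGRNNYYCC, where R is A or G, Y is C or T and N any base), was searched on both strands with overlapping matches counted. The match in CCL20 begins 79 bases before the start, and the 2 overlapping matches in CXCL1 begin 79 and 78 bases before it, as those in CXCL2 do at 78 and 77. Promoter sequence was available for 13 of the 14 lower members, and 8 of these (61.5%) held a match, against 9.6% of 27305 promoters. The windows of IL1A, IL1B and CXCL8 held no exact match. That of CXCL8 holds tggaatttcc, which differs from the consensus in its first letter only, so a window without a match can still hold a related sequence. Of the lower members of the antimicrobial and acute phase list described next, 6 had promoter sequence and 2 of these (33.3%) held a match. The NF-kB list was chosen for known roles in that pathway, so a share above that of all promoters could be expected whatever the calls. The share among its members that were not called was not computed. These are matches of letters, not measured binding.

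Antimicrobial and acute phase genes, which airway epithelium makes as part of its barrier, differed in the same direction in 12 of 23 measured members, with 1 higher and a median of -0.73. DEFB4A, which encodes the inducible beta-defensin 2, had the largest fall of all named genes. It read 8.88, 8.87 and 8.89 in lacZ cells and 13.50, 13.55 and 13.46 in shNT cells (-4.62 ± 0.10, 24.7-fold, adjusted p = 1.34e-21). Against a parental mean of 13.89, lacZ cells differed by -5.01 and shNT cells by -0.39, and both passed the test. The genome holds an identical copy, DEFB4B, whose RNA the probe cannot tell from that of DEFB4A. DEFB103A, which encodes beta-defensin 3 and also has a copy, moved the other way and was chosen after its values were seen. It read 12.18, 12.23 and 11.90 in lacZ cells and 10.40, 10.20 and 10.01 in shNT cells (1.90 ± 0.12), and both groups were above the parental mean of 8.04.

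SAA1, an acute phase apolipoprotein, read 7.64, 7.16 and 7.69 in lacZ and 11.66, 10.77 and 11.64 in shNT cells (-3.86 ± 0.17, 14.5-fold). The parental mean of 10.11 lay between the groups. Its relatives SAA4 (-2.69 ± 0.15) and SAA2 (-1.31 ± 0.15) were also lower, with the reservation that SAA1 and SAA2 share most of their sequence. SERPINA3, a protease inhibitor of the acute phase, read 8.75, 7.95 and 8.29 against 10.77, 11.07 and 11.21 (-2.68 ± 0.15, 6.43-fold), and the shNT cells were within the test's error of parental cells. The epithelial protease inhibitors PI3 (-1.62 ± 0.17), WFDC2 (-1.33 ± 0.15) and SLPI (-1.27 ± 0.16) showed another order, since lacZ cells did not pass the test against parental cells and shNT cells were higher by 1.38, 1.62 and 1.02. SERPINA1, the gene of alpha-1 antitrypsin, was the member that was higher in lacZ cells (0.67 ± 0.15). CHI3L2, a chitinase-like protein, was 9.11-fold lower (-3.19 ± 0.14) without belonging to the list. With the genes limited to those above the 75th percentile of all probes in at least 3 arrays, the 12 lower members became 7.

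Of 22 measured S100 calcium-binding protein and annexin genes, 6 were lower and 2 higher in lacZ cells. S100A9, one chain of calprotectin, read 9.18, 8.93 and 9.36 in lacZ and 12.85, 12.93 and 13.02 in shNT cells (-3.78 ± 0.13, 13.7-fold, adjusted p = 3.60e-17). Its level in parental cells was 10.73, below every shNT array and above every lacZ array. S100A8, the other chain, read 6.62, 6.80 and 6.66 against 9.02, 8.94 and 8.97 (-2.28 ± 0.12, 4.87-fold), and S100A7, known as psoriasin, 6.10, 6.13 and 6.15 against 8.85, 8.78 and 9.05 (-2.77 ± 0.14, 6.80-fold). For S100A7 and S100A8 the lacZ and parental levels were both near background, and only the shNT arrays stood above it among these 3 groups. CDH1 hairpin cells, with the same vector, were also near background for S100A7. S100P (-1.30) was lower as well, and ANXA10 was higher (1.13 ± 0.14). Because S100A8 and S100A9 are also abundant in myeloid cells, the haematopoietic markers are given. Of 12 measured, CD14 (-1.01 ± 0.12) and PTPRC (-0.45 ± 0.15) were lower and CD68 higher (0.26 ± 0.07). Averaged over all arrays of the series, 3 of these markers lay above the array median. The levels of LYZ, TYROBP, ITGAM and FCER1G ran from 6.10 to 6.65. Another CD68 probe passed in the opposite direction (-0.39). The summed level of the 12 markers was 84.35 to 85.48 in lacZ and 85.46 to 85.71 in shNT arrays. In squamous markers, 2 of 7 were lower, SERPINB3 (-1.03 ± 0.14) and CLCA2 (-0.65 ± 0.12), and the summed level was 48.78 to 49.33 in lacZ and 50.21 to 51.00 in shNT arrays, while KRT5 and DSG3 lay below the array median in both. The part of either marker list in the differences above was not tested. In bulk RNA, fewer cells that express a gene and less RNA per cell cannot be told apart.

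**Figure D2:**
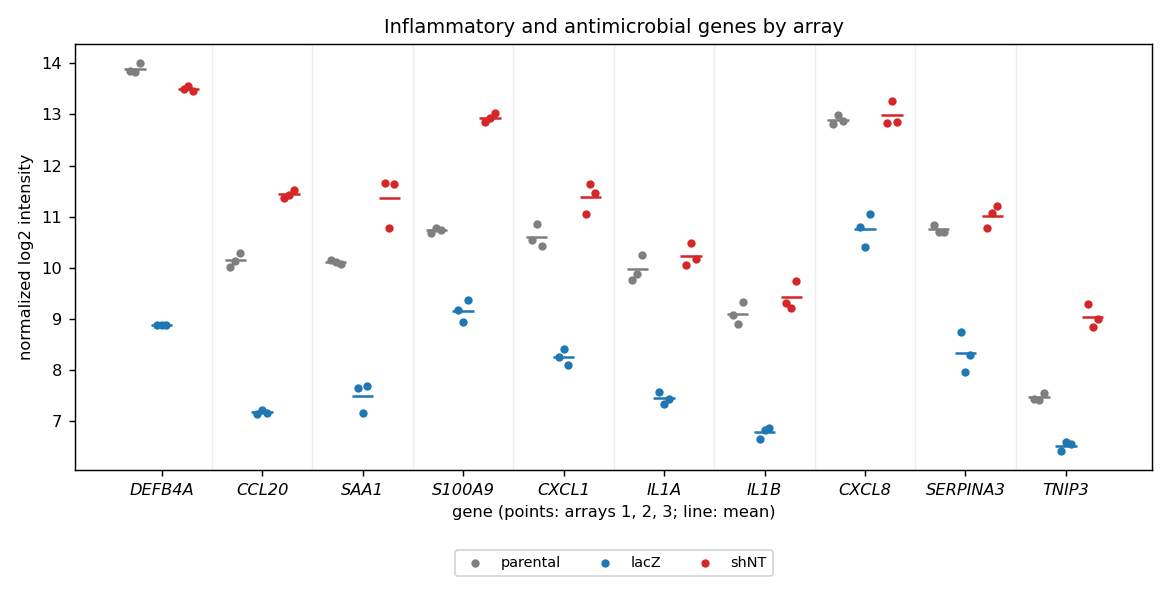
Normalized log2 intensity of 10 inflammatory and antimicrobial genes in each of the 3 parental (grey), 3 lacZ (blue) and 3 shNT (red) arrays, with a line at each mean. In all 10 genes every lacZ array lies below every shNT array, and parental cells lie near shNT cells for IL1A, IL1B, CXCL8 and SERPINA3 and between the controls for SAA1 and S100A9.

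Interferon response genes showed both directions. Of 46 measured, 14 were lower and 4 higher in lacZ cells, with a median of -0.02. IFI27, a mitochondrial interferon-induced protein, read 8.33, 8.04 and 8.31 in lacZ and 11.33, 10.85 and 11.22 in shNT cells (-2.91 ± 0.13, 7.49-fold, adjusted p = 6.58e-15). Parental cells had a mean of 13.59, so it was lower in both virus controls, with differences from parental cells of -5.37 in lacZ and -2.46 in shNT cells. IFITM1, a membrane protein that blocks virus entry, followed that order, at 7.72, 7.17 and 7.22 against 9.10, 8.82 and 9.42 (-1.74 ± 0.17), with a parental mean of 11.31. ISG20 (-1.05 ± 0.12), an RNA exonuclease, was 0.99 below parental cells in lacZ cells, where shNT cells differed by 0.06 and did not pass. IFIT3 was higher in lacZ cells (0.95 ± 0.25) with overlapping arrays of 10.02, 9.99 and 10.32 against 8.58, 10.02 and 8.87. The transcription factor IRF1 was higher by 0.49, and the antiviral GTPase MX1 was lower by 0.38, with both controls below the parental mean of 13.36. Without shNT array 1 the call of IFIT3 was lost, and of its other probes one gave 0.78 and passed and one gave 0.02 and did not. The number of lower members was 6 after median centring, 4 with no normalization and 9 without lacZ array 2 or without shNT array 1.

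Among 27 genes of nucleic acid sensing and retroviral restriction, 5 were higher and 7 lower in lacZ cells. TLR3, the receptor for double-stranded RNA in endosomes, read 8.86, 8.60 and 8.43 in lacZ and 7.89, 7.61 and 7.43 in shNT cells (0.98 ± 0.15, adjusted p = 3.84e-05), and the arrays did not overlap. TRIM5 (0.75 ± 0.19), which binds retroviral capsids, and CGAS (0.72 ± 0.12), the sensor of cytosolic DNA, were higher as well. TRIM5 lost its call without lacZ array 1. IKBKE, a kinase that activates IRF3 and NF-kB, was lower (-1.13 ± 0.16), as were IRF3 (-0.59) and STING1 (-0.52), the adaptor downstream of CGAS. With median centring 1 of the 7 lower members was called, and the count was 3 without lacZ array 2 and 4 without shNT array 1 or shNT array 3. Of the antigen presentation genes, 3 of 15 class I genes were lower (PSMB9 by 0.91, TAPBP by 0.75, PSMB8 by 0.58), HLA-B was higher by 0.28, and 2 of 11 class II genes were lower. Another probe of TAPBP passed the test in the opposite direction, and another of PSMB9 gave 0.15 and did not pass.

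Of 20 measured genes of the microRNA pathway, which a hairpin uses, 5 were higher and 2 lower in lacZ cells, against 11.3% and 10.5% of all genes. DROSHA, which cuts primary microRNAs in the nucleus, differed by -0.10 ± 0.12 (adjusted p = 0.627). XPO5, which carries hairpins out of the nucleus, differed by 0.15 ± 0.13 (adjusted p = 0.50), and both had overlapping arrays. DICER1, which cuts hairpins in the cytoplasm, read 10.23, 10.56 and 10.18 in lacZ and 9.47, 9.69 and 9.65 in shNT cells (0.72 ± 0.12, adjusted p = 6.94e-05), but the other 3 DICER1 probes differed by -0.23 to -0.04 and did not pass. AGO2, the Argonaute protein that cleaves targets, read 9.55, 9.61 and 9.58 against 10.40, 9.99 and 10.18 (-0.61 ± 0.15), and that call was lost with median centring.

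SNAI2, which encodes the EMT transcription factor SLUG, and a set of mesenchymal genes were higher in lacZ cells, although CDH1 was not lower. SNAI2 read 11.07, 11.08 and 10.98 in lacZ and 7.88, 8.20 and 7.63 in shNT cells (3.14 ± 0.13, 8.81-fold, adjusted p = 5.18e-15). Its parental mean of 8.12 was within the test's error of shNT cells, and lacZ cells were 2.92 log2 units above parental cells. VIM, the intermediate filament vimentin, read 12.87, 12.89 and 12.81 against 10.26, 10.87 and 10.22 (2.41 ± 0.12, 5.30-fold), with a parental mean of 10.27. The lacZ arrays of both genes stood apart from shNT and parental arrays, which overlapped each other.

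CDH2, which encodes N-cadherin, was higher than in parental cells in both virus controls, by 4.20 in lacZ and 1.82 in shNT cells. It read 10.55, 10.68 and 10.45 in lacZ cells and 8.31, 8.07 and 8.14 in shNT cells (2.38 ± 0.10, 5.22-fold), against a parental mean of 6.36. CDH6, a kidney-type cadherin, showed the same order at 9.19, 9.11 and 8.91, then 7.26, 7.32 and 7.18, with a parental mean of 6.28 (1.82 ± 0.15). In the mesenchymal cytoskeleton and adhesion list 11 of 35 measured genes were higher and 4 lower, with a median of 0.11. GLIPR1 (1.05 ± 0.14), AXL (1.01 ± 0.14), a receptor kinase tied to resistance to EGFR inhibitors, TUBB6 (0.83) and TAGLN (0.67) were among the higher ones. Lower were MYL9 (-0.79), S100A4 (-0.58), FN1 (-0.47), the gene of fibronectin, and NT5E (-0.36), and none of these 4 was called without normalization between arrays. A second MYL9 probe gave -0.04 and did not pass. The 10 fibroblast markers gave no call, and their summed level was 65.76 to 66.41 in lacZ and 66.01 to 66.44 in shNT arrays.

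Of 20 EMT transcription factor genes, 3 were higher and 5 lower. Beside SNAI2, SOX9 was higher (1.25 ± 0.13), and SOX4 read 11.79, 11.62 and 11.79 in lacZ and 8.85, 11.51 and 10.01 in shNT cells (1.61 ± 0.33), a gene in which shNT array 2 nearly reached the lacZ level. ZEB1 (0.05), ZEB2 (0.20), TWIST1 (-0.15) and SNAI1 (0.05) did not pass the test. The SNAI1 probe lay below the array median even in SNAIL cells, at a mean of 6.155, so it does not show whether SNAI1 differed. The inhibitors of differentiation ID3 (-0.75), ID1 (-0.57) and ID2 (-0.48), targets of BMP signalling, were lower, and none was called without normalization. In the extracellular matrix list 7 of 33 genes were higher and 2 lower. THBS1, the gene of thrombospondin-1, read 11.12, 11.46 and 10.82 in lacZ and 9.12, 9.63 and 8.79 in shNT cells (1.95 ± 0.16, 3.87-fold), and shNT cells were at the parental level. FBN2 (1.14 ± 0.10) and COL5A1 (0.97 ± 0.12) were higher, while COL1A1, COL1A2 and COL3A1 did not pass. Of 23 matrix proteases and inhibitors 4 were higher and 4 lower, with KLK6, a secreted serine protease, at 1.80 ± 0.12 and MMP7 at -0.93 ± 0.13.

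**Figure D3:**
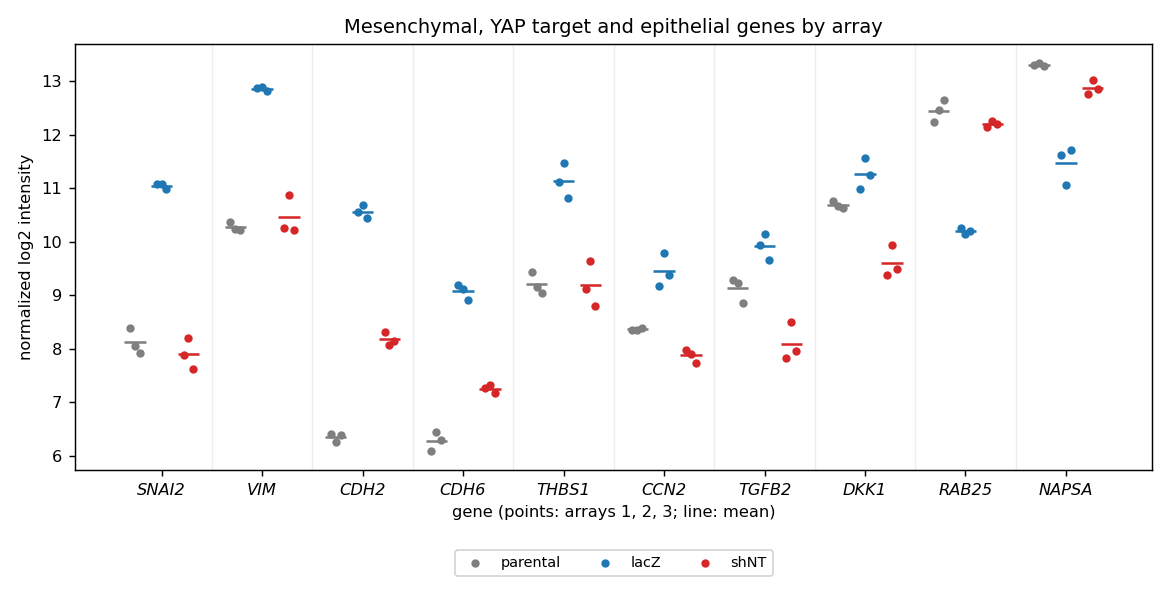
Normalized log2 intensity of 10 mesenchymal, matrix and epithelial genes in each of the 3 parental (grey), 3 lacZ (blue) and 3 shNT (red) arrays, with a line at each mean. SNAI2, VIM and THBS1 are high in lacZ arrays alone among the 3 groups, CDH2 and CDH6 are lowest in parental, intermediate in shNT and highest in lacZ arrays, and RAB25 and NAPSA are low in lacZ arrays.

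Epithelial identity genes were lower in lacZ cells in 13 of 36 measured members and higher in 4, with a median of -0.14. RAB25, a GTPase that recycles receptors to the surface of epithelial cells, read 10.25, 10.13 and 10.20 in lacZ and 12.14, 12.26 and 12.20 in shNT cells (-2.01 ± 0.12, 4.02-fold, adjusted p = 5.87e-12), with a parental mean of 12.44. The adhesion protein CEACAM6 (-1.33 ± 0.12), the disulfide isomerase AGR2 (-1.20 ± 0.13) and the tetraspanin TSPAN8 (-1.20 ± 0.12) were lower too. CEACAM6 was also lower in shNT than in parental cells, by 1.58, whereas AGR2 and TSPAN8 differed there by 0.08 and 0.12 and did not pass. KRT18 (0.69 ± 0.13) and ESRP1 (0.58), a splicing factor of epithelial cells, were higher in lacZ cells, although a second KRT18 probe gave 0.11 and did not pass. Junction and polarity genes split evenly, 5 higher and 5 lower of 25, with the polarity genes LLGL2 (-0.83) and CRB3 (-0.62) on one side and MARVELD2 (0.83), the gene of tricellulin, on the other. Without normalization between arrays the 13 lower epithelial genes became 7 and the 5 lower junction genes 1, and the median of the epithelial list turned to 0.01.

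Lung lineage genes were lower in 6 of 25 measured members and higher in 1. NAPSA, the aspartic protease napsin A of alveolar type II cells, read 11.62, 11.07 and 11.71 in lacZ and 12.76, 13.01 and 12.86 in shNT cells (-1.41 ± 0.13, 2.66-fold). SOX2, a transcription factor of airway progenitors, read 11.04, 10.47 and 10.84 against 12.03, 12.42 and 12.36 (-1.48 ± 0.14, 2.79-fold), and lacZ cells were 1.12 below parental cells where shNT cells did not pass. The lineage factor NKX2-1 differed by -0.33 ± 0.13 and missed the threshold (adjusted p = 0.0677). HOPX was near background in both controls at 5.79 and 6.45, against a parental mean of 9.61, and its difference between controls changed sign with the background offset.

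Targets of YAP and TEAD, the transcription factors of the Hippo pathway, were higher in lacZ cells in 10 of 24 measured members and lower in 1, with a median of 0.25. CCN2, a matricellular growth factor, read 9.17, 9.79 and 9.37 in lacZ and 7.98, 7.91 and 7.74 in shNT cells (1.57 ± 0.12, 2.97-fold, adjusted p = 6.05e-10). The parental mean was 8.37, between the groups. A second CCN2 probe gave a smaller difference of 0.59 and passed. ANKRD1, a muscle ankyrin repeat protein, differed by 0.99 ± 0.17, F3, the gene of tissue factor, by 0.93 ± 0.13, and CCN1, a relative of CCN2, by 0.80 ± 0.08. NT5E was the member that was lower. The count of higher members was 10 or 11 under median centring, without normalization and with any 1 array left out.

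The CCN2 promoter is shown for its repeated TEAD core, GGAATG, in capitals (GRCh38.p14 RefSeq, chr6:131951373-131951622, minus strand, 250 bases before the start, 5′ to 3′).
CCN2: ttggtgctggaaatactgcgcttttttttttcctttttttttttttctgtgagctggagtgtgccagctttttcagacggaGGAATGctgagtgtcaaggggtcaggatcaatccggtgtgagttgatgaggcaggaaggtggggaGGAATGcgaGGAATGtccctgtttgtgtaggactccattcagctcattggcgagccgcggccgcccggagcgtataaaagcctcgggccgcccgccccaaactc
The 3 matches begin between 169 and 95 bases before the start. The core was searched on both strands, and it stood in 3 of the 7 higher members with promoter sequence (42.9%), against 11.9% of 27305 promoters. ANKRD1 held 2, at 220 and 128, and AXL none. The list was made of known YAP and TEAD targets, so this share does not bear on the calls. The share among members not called was not computed.

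In the list of TGF-beta and SMAD genes 9 of 32 were higher and 4 lower. TGFB2, a ligand of the pathway, read 9.93, 10.14 and 9.67 in lacZ and 7.82, 8.50 and 7.96 in shNT cells (1.82 ± 0.17, 3.53-fold). Parental cells at 9.13 lay between, 0.79 below lacZ and 1.03 above shNT cells, and both distances passed the test. The other 8 higher members differed by 0.27 to 0.63, and the count of 9 was 3 with no normalization and 5 without lacZ array 2 or without shNT array 1. The inhibitory SMAD6 (-0.76) and the ligand BMP2 (-0.69) were lower. Of 21 Wnt feedback and target genes 5 were higher and 3 lower, and the count of 5 was the same in every alternative except a minimum size of 0.5 log2, where it was 3. DKK1, a secreted Wnt inhibitor, read 10.98, 11.56 and 11.25 against 9.38, 9.93 and 9.49 (1.66 ± 0.17), and TNFRSF19 (1.15 ± 0.13) and MYC (1.09 ± 0.13) were higher as well. AXIN2 (-0.26), a direct feedback target, and LEF1 (0.00) did not pass.

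Of 15 ERBB receptors, ligands and regulators, 6 were higher and 3 lower in lacZ cells. The EGFR ligand HBEGF read 9.36, 9.71 and 9.42 in lacZ and 8.43, 8.30 and 8.32 in shNT cells (1.15 ± 0.15), and the ERBB3 ligand NRG1 11.41, 11.45 and 11.39 against 10.26, 10.73 and 10.18 (1.03 ± 0.12). EREG (0.65), TGFA (0.57) and BTC (0.50), which also bind EGFR, were higher, while the ligands EGF (-0.13), NRG2 (0.13) and NRG4 (-0.26) did not pass. The receptors ERBB3 (-0.73 ± 0.12) and ERBB2 (-0.36 ± 0.09) were lower, as was the inhibitor LRIG1 (-0.93 ± 0.12), and ERBB2 and ERBB3 lost their calls without normalization. Among 22 genes of ERK output 5 were higher and 4 lower, among them genes of phosphatases that act on MAP kinases. DUSP6 was lower on its brightest probe (-1.29 ± 0.11, adjusted p = 3.47e-09), but a second probe gave -0.01 and did not pass, and DUSP1 (1.13 ± 0.13) and DUSP4 (0.77) were higher. SPRY2, SPRY4 and EGR1 did not pass.

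Of 36 other receptor kinases and ligands 7 were higher and 4 lower. IGFBP2, which binds insulin-like growth factors, read 7.47, 7.36 and 7.54 in lacZ and 9.84, 9.84 and 10.16 in shNT cells (-2.49 ± 0.12, 5.62-fold), with a parental mean of 9.77. IGFBP6 went the other way (1.29 ± 0.13). The receptor KIT was lower (-1.47 ± 0.12) and its ligand KITLG higher (1.07 ± 0.13), and the AXL ligand GAS6 was higher (1.21 ± 0.14) together with AXL. MET (-0.10), IGF1R (0.10) and FGFR1 (-0.11) did not pass the test.

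Of 16 BCL2 family members, 5 were lower in lacZ cells and 1 was higher. BIK (-0.38), BMF, BAD (-0.44) and BAX promote apoptosis, and BCL2A1 (-0.42) restrains it. BMF, which neutralizes BCL2, read 8.23, 7.66 and 8.13 against 9.78, 9.45 and 9.75 (-1.66 ± 0.17, 3.15-fold), and HRK, of the same class, was higher (0.81 ± 0.13). BAX (-0.88 ± 0.21) had overlapping arrays and another probe at 0.14, the other BAD probes gave -0.06 and 0.24, none of which passed, and only BMF of the lower ones was called without normalization. The count of 5 was 3 without lacZ array 3, without shNT array 2 or without shNT array 3. MCL1, BCL2L1 and BCL2L11, the gene of BIM, did not pass. Among 20 p53 targets 5 were lower and 2 higher, led by GDF15, a stress cytokine (-1.43 ± 0.16), and RRM2B, a ribonucleotide reductase subunit (1.02), of which another probe gave -0.22 and did not pass. Replication and mitosis genes were higher in 11 of 40 and lower in 1, with a median of 0.14. RRM2, which makes deoxynucleotides, read 11.71, 11.87 and 11.45 in lacZ and 10.39, 10.78 and 10.54 in shNT cells (1.11 ± 0.13), and the parental mean of 11.92 was near lacZ cells. UHRF1 (0.93 ± 0.12), a factor that maintains DNA methylation, had a mean of 12.66 in lacZ, 11.73 in shNT and 12.51 in parental cells. MKI67 was the lower member (-0.65 ± 0.12), and CDK1, MCM2 and TOP2A did not pass. The 11 higher members became 5 without normalization, 5 without lacZ array 2 and 4 without shNT array 3.

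Heat shock protein genes were higher in lacZ cells in 8 of 15 measured members, with none lower and a median of 0.25. HSPB8, a small heat shock protein that acts with BAG3 in the clearance of misfolded proteins, read 9.25, 9.37 and 9.26 in lacZ and 7.76, 7.89 and 7.70 in shNT cells (1.51 ± 0.10, 2.85-fold, adjusted p = 2.15e-11). Its parental mean was 7.63, within the test's error of shNT cells. BAG3 read 11.23, 11.16 and 11.02 against 10.37, 10.47 and 10.35 (0.74 ± 0.12), but there lacZ cells matched parental cells within the test's error, and shNT cells were 0.76 below them. HSPA1B (0.74) and HSPA1A (0.55) are nearly identical genes whose probes may share signal. HSP90AA1 (0.11), HSPD1 (0.02) and HSPB1 (0.05) did not pass.

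The HSPB8 promoter is shown with the core of the heat shock element, GAA, any 2 bases and TTC, in capitals (GRCh38.p14 RefSeq, chr12:119178681-119178930, plus strand, 250 bases before the start, 5′ to 3′).
HSPB8: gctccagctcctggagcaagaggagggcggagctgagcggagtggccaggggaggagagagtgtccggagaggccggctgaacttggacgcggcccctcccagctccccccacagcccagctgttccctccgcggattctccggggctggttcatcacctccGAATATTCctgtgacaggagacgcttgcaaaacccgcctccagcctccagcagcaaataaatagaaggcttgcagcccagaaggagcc
The match begins 88 bases before the start. Searched on both strands, the core stood in 4 of the 7 higher members with promoter sequence (57.1%), against 5.8% of 27305 promoters. HSPA1B held it at 105, and BAG3 held none in this window. The list was made of heat shock genes, so this share does not bear on the calls. The share among members not called was not computed.

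The unfolded protein and amino acid stress list was split, 8 higher and 6 lower of 28. Higher were genes of amino acid supply such as PSPH (0.80 ± 0.16), PSAT1 (0.66) and SLC3A2 (0.65) and the transcription factor ATF3 (0.88 ± 0.10). Lower were DDIT3 (-0.95 ± 0.15), the gene of CHOP, and the endoplasmic reticulum chaperones PDIA4 (-0.90 ± 0.12), CALR (-0.79 ± 0.14) and HSPA5 (-0.34). The 6 lower members became 2 without normalization and 3 without lacZ array 2, lacZ array 3 or shNT array 3, and the 8 higher became 5 without shNT array 3. Sterol and fatty acid synthesis genes were higher in 7 of 21 with none lower, led by INSIG1 (0.77 ± 0.12), which holds back the sterol sensor, MVD (0.74 ± 0.12) and SQLE (0.56 ± 0.11). Without lacZ array 2 or without shNT array 3 the count was 3. Hypoxia and glycolysis genes were lower in 6 of 25 with none higher, among them the glucose transporter SLC2A3 (-1.27 ± 0.13) and the enolase ENO2 (-1.02 ± 0.10), and 2 of the 6 were called after median centring. Of 19 NRF2 targets and aldo-keto reductases 5 were higher and 1 lower, with GCLM (0.94 ± 0.13), of glutathione synthesis, and GPX2 (-1.25 ± 0.21), a glutathione peroxidase, at the ends. A second GCLM probe passed in the opposite direction. In the list of metallothioneins and zinc handling 3 of 9 measured genes were lower and 1 higher. Lower were MT1G (-0.48), MT1E (-0.45) and MTF1, the transcription factor of metallothioneins (-0.91 ± 0.16), and higher the zinc exporter SLC30A1 (0.74). Without shNT array 2 the count of lower members was 7.

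In oxidative phosphorylation 1 of 23 subunits was lower (SDHC) and none higher, and in the ribosome 1 of 22 proteins was lower (RPL10, of which another probe passed in the opposite direction). Of 15 histone genes 2 were higher. GAPDH, a common reference transcript, differed by 0.01 ± 0.07 (adjusted p = 0.961), whereas PPIA was higher in lacZ cells (0.74 ± 0.18). ACTB was higher by 0.17 ± 0.06 (adjusted p = 0.0371), a call lost with median centring.

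**Figure D4:**
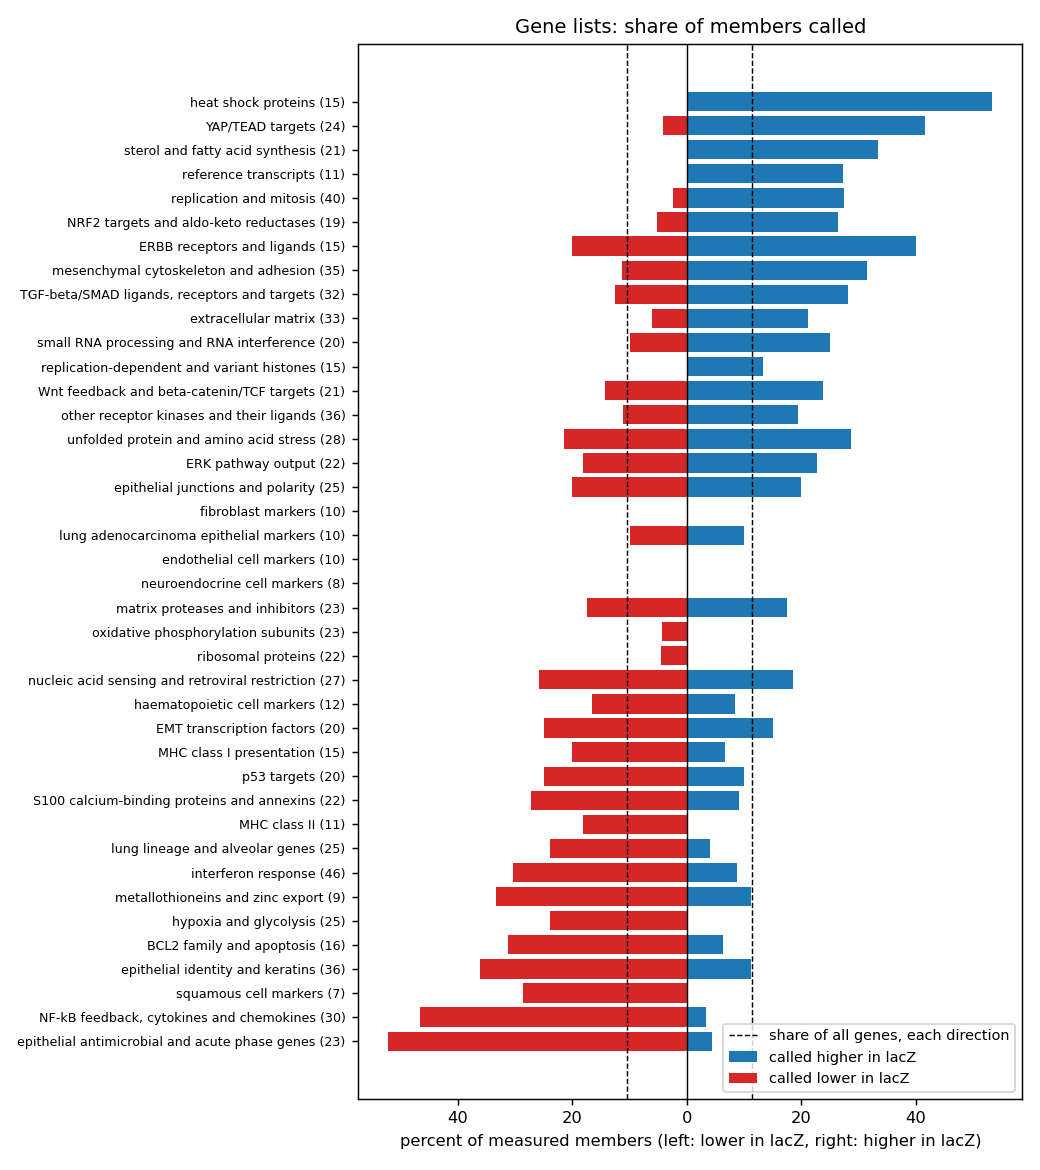
Share of the measured members of each of 40 gene lists (number in brackets) that was called higher in lacZ cells (blue, right) or lower in lacZ cells (red, left), with dashed lines at the shares of all genes, 11.3% and 10.5%. NF-kB and antimicrobial genes have the longest bars on the left, heat shock and YAP/TEAD genes on the right, and oxidative phosphorylation and ribosomal proteins stay inside the dashed lines.

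Several of the largest rises belonged to genes whose levels varied among the shNT arrays. BICC1, an RNA-binding protein, read 11.69, 11.67 and 11.69 in lacZ and 7.46, 9.60 and 7.88 in shNT cells (3.37 ± 0.33, 10.3-fold, adjusted p = 3.51e-08), and EIF2S3, a translation initiation factor subunit, 11.91, 11.93 and 11.80 against 9.22, 10.61 and 9.62 (2.06 ± 0.27). In both, shNT array 2 was the highest of its group but still below every lacZ array, and shNT cells differed from parental cells by -2.28 in BICC1 and -1.89 in EIF2S3. The standard deviation among shNT arrays was 1.13 in BICC1 and 0.72 in EIF2S3, against 0.01 and 0.07 among lacZ arrays. The pooled standard errors do not show this unequal spread. C6orf62, a reading frame outside the rule for named genes that was chosen after its values were seen, had the largest rise of those printed here, 10.92, 11.01 and 11.09 against 7.12, 7.54 and 6.95 (3.81 ± 0.28). The mitochondrial poly(A) polymerase MTPAP (1.95 ± 0.20) and the pseudouridine synthase TRUB1 (1.96 ± 0.29) were low in shNT cells alone when set beside parental cells. In all, 86 called genes had a standard deviation above 0.5 among the shNT arrays, and shNT array 2 was the highest shNT array in 64 of them, against 15 called genes with such a spread among the lacZ arrays. Of the 86, 62 were higher in lacZ cells. Genes that were not called were left out of these counts, so they do not show whether called genes varied more than others.

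OLFM4, a secreted glycoprotein of crypt stem cells and neutrophils, read 11.80, 11.44 and 11.63 in lacZ and 8.94, 9.04 and 9.06 in shNT cells (2.61 ± 0.14, 6.11-fold). Parental cells were at background with 6.43, 5.20 below lacZ and 2.58 below shNT cells. SNAIL and CDH1 hairpin cells, which carry the same vectors, were also at background, with means of 5.94 and 6.04. AFAP1L2 (2.34 ± 0.13), an adaptor of the kinase SRC, the ubiquitin ligase MARCHF4 (2.18 ± 0.15), PRR16 (2.14 ± 0.13) and the adhesion receptor ADGRL2 (2.12 ± 0.13) were higher too. The spliceosomal RNA RNU4-2 read 10.00, 10.22 and 11.02 against 7.05, 8.35 and 8.05 (2.59 ± 0.44), and the small nucleolar RNA SNORD3D 9.60, 8.69 and 8.99 against 6.35, 6.56 and 6.45 (2.64 ± 0.25). RNU4-2 varied within groups, with a standard deviation of 0.76 in parental, 0.54 in lacZ and 0.68 in shNT arrays. RNU4-2 has a near-identical copy, RNU4-1, and SNORD3D has copies such as SNORD3A, so these probes may share signal. PNCK, a calmodulin-dependent kinase, was among the largest falls at 7.16, 6.62 and 6.75 against 9.38, 9.64 and 9.55 (-2.68 ± 0.14, 6.41-fold), with a parental mean of 8.43 between.

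A pair of genes shown in all 18 arrays was chosen after the values were seen. SETD2, the methyltransferase of lysine 36 on histone H3, read 8.39, 8.45 and 8.24 in lacZ and 10.34, 10.52 and 10.55 in shNT cells (-2.11 ± 0.10), and the 3 lacZ arrays lay below all other 15. HINT3, a nucleotide hydrolase, read 10.41, 9.67 and 10.01 against 12.34, 11.55 and 12.34 (-2.04 ± 0.23), and the pLKO1 arrays of both hairpins lay above all others.

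**Figure D5:**
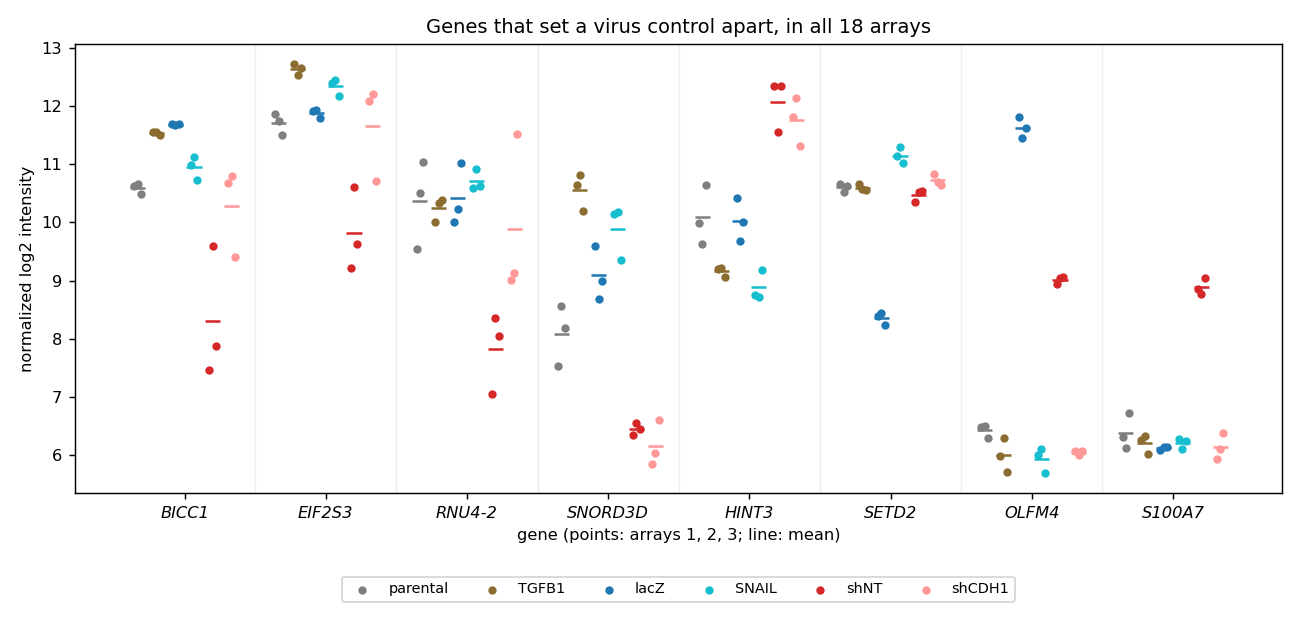
Normalized log2 intensity of 8 genes in all 18 arrays, 3 in each of 6 groups (colours), with a line at each group mean. SETD2 is low and OLFM4 highest in the 3 lacZ arrays, S100A7 is high in the 3 shNT arrays, HINT3 is high and SNORD3D low in the pLKO1 groups shNT and shCDH1, and BICC1 and EIF2S3 vary most among the arrays of the pLKO1 groups, while RNU4-2 also varies among parental and lacZ arrays.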

How the data were processed

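Illumina bead array intensity values of 18 HCC827 samples, 3 in each of 6 groups, were used as deposited. The labels' protocols describe biotin labelling and hybridization, and the software and settings behind the deposited intensities are not given in the sources used here. Of 47323 probes, 2 with values of 0 were left out. Intensities were corrected with normexp (offset 50), log2 transformed and quantile normalized over all 18 arrays in limma 3.58.1 (R 4.3.3). Of the probes, 30113 had 1 symbol in the platform annotation, 8 had several and 17200 were not listed, and 30074 were matched to RefSeq by Entrez identifier. Each gene was represented by its brightest probe on average over the 18 arrays, which gave 20046 genes, 6691 of them with several probes. The 17208 probes that lack one symbol were analysed in a separate fit.

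One model with 6 group means was fitted, and lacZ minus shNT was tested with limma's moderated test and Benjamini-Hochberg adjustment over all genes (12 residual degrees of freedom, adjusted p below 0.05). The same fit gave each control against parental cells. The number of arrays limits the precision, with a median standard error of 0.128 log2 units. The script was tested on simulated data.

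The members and the 40 gene lists (876 symbols, 820 measured) were chosen with earlier results of these data known. The named genes are CDH1, SNAI1, VIM, CDH2 and EGFR, the 15 largest rises and falls among called genes whose arrays did not overlap, without provisional symbols, up to 4 called members per list and direction, and well-known list members that did not pass. Called genes named beyond this, for their role and after their values were seen, are CXCL2, CXCL8, IL6, NFKBIA, TNFAIP3, SAA2, PI3, WFDC2, DEFB103A, MX1, AGR2, TSPAN8, TAGLN, TUBB6, TGFA, BTC, CCN1, F3, BIK, HSPA1A, HSPA5, C6orf62, SETD2 and HINT3. Arrays with the same title number deviated together with r = -0.03, 0.11 and 0.17, and those with unlike numbers with r from -0.15 to 0.04. The labels do not say that the numbers pair arrays, so they were not treated as pairing them. Alternatives covered background, normalization, filters, probe choice, moderation, thresholds, blocks and each array left out.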

Additional observations from a re-analysis of the deposited data

How the results depend on the processing

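The 4374 genes called became 1884 with no normalization between arrays, 1456 with a floor and log2 alone, 2808 at an adjusted p below 0.01 and 417 when tested against 0.5 log2. In the same order, the 2274 higher genes became 1469, 1217, 1461 and 197, and the 2100 lower genes 415, 239, 1347 and 220, with 1125 lower after median centring. Against the main median of 0.0037, the median of all genes was 0.03 after median centring, 0.09 with no normalization and 0.17 with the floor. The 415 genes at 1 log2 unit or more became 264 without normexp. With 1 array left out, 3134 (without shNT array 3) to 4738 (without shNT array 2) genes were called, 1598 to 2399 higher and 1487 to 2339 lower, and 354 to 596 at 1 log2 unit or more. A block on the title number gave 4675 calls and one on the description number 4624. Averaging arrays by description number gave 3270. In deviations from the group mean, lacZ arrays 2 and 3 correlated best with the shNT array of their own number (r = 0.11 and 0.17). Array 1 of the lacZ cells did not (r = -0.03, against 0.04 with shNT array 2). Other combinations of unlike numbers ran from -0.15 to 0.01. Of 221 named or chosen genes followed through the alternatives, 90 kept their result in every alternative and 3 turned direction in at least 1. Calls were lost for 126 when tested against 0.5 log2, 80 with the floor and 62 with no normalization. The direction of HOPX turned with an offset of 16 (0.0430) and with 6 arrays alone (0.0307). That of BAD turned with its most variable probe (0.24), and that of CD68 with the mean of its probes (-0.0484) or its most variable probe (-0.0115). The cause was not tested.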

Other observations

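These genes and probes were chosen after their values were seen and are given as values. Of 301 measured small nucleolar RNAs, 23 were higher and 59 lower in lacZ than in shNT cells, with a median of -0.03. Of all genes, 11.3% were higher and 10.5% lower. Of 20 other small RNAs 5 were higher and 2 lower, and RN7SK, the RNA that holds the elongation factor P-TEFb inactive, read 9.18, 8.82 and 8.83 against 6.95, 7.16 and 7.07 (1.88 ± 0.22). VTRNA2-1 (-0.96) and RNU4ATAC (-0.77) were the lower ones.

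Some called genes set 1 group or 1 vector apart from all other arrays. In lacZ cells, 136 called genes had all 3 arrays above every other array and 83 had them below. In shNT cells the counts were 415 above and 391 below. The 6 pLKO1 arrays lay above all others in 166 called genes and below in 129, and the 6 pLX303 arrays in 79 and 29. Only the genes called between lacZ and shNT cells, 4374 of 20046 (21.8%), were counted. Other genes were left out, so these are not numbers of genes particular to a vector or an insert.

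Among the 17208 probes without a single symbol, 1381 (8.03%) were called. The largest difference was at ILMN_1680965, with means of 8.31 in lacZ, 13.39 in shNT and 13.77 in parental cells (-5.08 ± 0.13, adjusted p = 6.39e-25). ILMN_1782937 was the largest in the other direction, with 8.60, 6.25 and 6.21 (2.35 ± 0.19).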
